A study of Mus musculus with 10 samples.

Results

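Internal exons held 3678 of the 13965 peaks that were listed for 4 conditions in a map of N6-methyladenosine (m6A) made from 3T3-L1, a line of mouse fibroblasts that become fat cells under a hormone cocktail. A peak was counted as an internal exon peak when its deposited annotation began with Exon and named exon N of M with N above 1 and below M, so that the exon lay between a pair of splice junctions. This rule used the annotation and not the strength of the signal. The lists came from methylated RNA immunoprecipitation and sequencing (MeRIP-seq), which sequences the RNA fragments that an anti-m6A antibody captures (the IP) beside the fragments before capture (the input) and calls the places where the former exceed the latter. Control cells received the solvent dimethyl sulfoxide (DMSO) and were sampled as preadipocytes in growth arrest (DMSO Pre), while they divided again in mitotic clonal expansion (DMSO MCE) and during differentiation (DMSO Diff). Rhein, an anthraquinone from plants, was added at 20 µM between day 0 and day 3, and such cells were collected at both later stages (rhein MCE and rhein Diff). All conditions used the same cell line, and each had 1 IP and 1 input library. No difference between conditions could therefore be tested, and the 95% intervals given for shares (Wilson) and medians (order statistics) cover counting error over peaks only.

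The list labelled rhein Diff could not serve as a condition of its own. All 756 internal exon peaks of rhein MCE occurred with an identical span among the 757 of rhein Diff. The rhein lists were counted as 1 sample, and rhein MCE was used under its deposited label. Whether its peaks came from libraries of the MCE stage, of the differentiation stage or of both cannot be told from the lists. This bears on each comparison of rhein MCE with DMSO MCE below. Rhein at the MCE stage could not be compared with rhein at the differentiation stage. The lists gave no read number per peak, so the depth behind each peak was unknown, and more methylation per transcript, more RNA and deeper sequencing cannot be told apart wherever a peak was listed in one condition and not in another. Of 6 genes that mark preadipocytes or fibroblasts, all had a listed peak somewhere in their RNA in at least 1 list, among them Pdgfra. None of the 5 adipocyte genes Fabp4, Adipoq, Pparg, Cebpa and Plin1 had one in any list, DMSO Diff included. Of 20 genes that mark other cell types 1 had a listed peak, Sox9. Of all 21924 protein-coding genes 16.4% had a listed peak in at least 1 list. At that share, none among 5 genes says little about the amount of the adipocyte RNAs or their methylation.

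m6A is laid down on nascent RNA by a methyltransferase complex around METTL3 and METTL14, mostly at the adenosine of GGAC and related sequences (DRACH, named for the bases it allows), and is bound by reader proteins such as YTHDF1, YTHDF2 and YTHDF3. In mammalian mRNA it is known to lie around the stop codon, in the 3′ UTR and in unusually long internal exons. Most internal exons of mammalian genes are short, and exon junction complexes are deposited just upstream of each junction when the introns are removed.

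To show the RNA under such peaks, the sequences of 9 members are printed 5′ to 3′ on the strand of the transcript, read from GRCm38 (the assembly named mm10) by the deposited coordinates, with each GGAC in capitals. The first set came from the peaks of DMSO Pre that were found in all 4 lists and ranked best in each of them, as far as they lay in 1 coding exon and spanned no more than 300 bases.
Vcan, exon 8 of 15, chr13:89689671-89689945, minus strand, 275 bases: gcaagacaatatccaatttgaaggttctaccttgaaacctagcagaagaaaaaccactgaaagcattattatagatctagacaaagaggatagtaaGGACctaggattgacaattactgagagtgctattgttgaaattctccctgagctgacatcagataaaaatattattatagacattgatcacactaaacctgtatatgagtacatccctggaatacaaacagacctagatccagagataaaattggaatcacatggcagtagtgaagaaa
Vcan, exon 8 of 15, chr13:89691046-89691170, minus strand, 125 bases: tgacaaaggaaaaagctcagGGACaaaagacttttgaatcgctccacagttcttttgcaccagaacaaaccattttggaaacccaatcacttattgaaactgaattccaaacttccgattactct
Usp9x, exon 35 of 45, chrX:13156280-13156529, plus strand, 250 bases: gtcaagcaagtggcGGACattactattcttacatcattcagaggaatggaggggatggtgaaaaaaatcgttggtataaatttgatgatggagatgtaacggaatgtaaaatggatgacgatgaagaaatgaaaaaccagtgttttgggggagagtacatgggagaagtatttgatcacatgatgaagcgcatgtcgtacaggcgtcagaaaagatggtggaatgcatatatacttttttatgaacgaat

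The second set shows the best-ranked peak of DMSO Pre in Ythdf1 and in Ythdf2, m6A readers of the YTHDF family, both in the long coding exon 4 of 5.
Ythdf1, chr2:180911820-180912019, minus strand, 200 bases: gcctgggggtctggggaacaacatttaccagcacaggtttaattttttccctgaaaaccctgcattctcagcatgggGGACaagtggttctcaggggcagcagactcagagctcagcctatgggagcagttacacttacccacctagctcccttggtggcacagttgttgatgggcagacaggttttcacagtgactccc
Ythdf2, chr4:132204246-132204445, minus strand, 200 bases: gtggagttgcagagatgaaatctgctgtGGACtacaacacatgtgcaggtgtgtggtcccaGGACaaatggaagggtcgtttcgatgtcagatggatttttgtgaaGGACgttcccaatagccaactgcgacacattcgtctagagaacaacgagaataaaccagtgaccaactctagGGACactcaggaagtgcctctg

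The third set holds no GGAC: a high-scoring peak in a short exon of Pdgfra, 1 in a non-coding RNA (Otx2os1), and the best-ranked peaks of at most 300 bases inside 1 exon of Rnf213 in DMSO Pre and of Top2a in DMSO MCE, genes with members in some of the lists only.
Pdgfra, exon 15 of 16, chr5:75181528-75181602, plus strand, 75 bases: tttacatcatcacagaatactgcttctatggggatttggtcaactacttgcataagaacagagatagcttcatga
Otx2os1, exon 3 of 4, chr14:48717632-48717706, plus strand, 75 bases: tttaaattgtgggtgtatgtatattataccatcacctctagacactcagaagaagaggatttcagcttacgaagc
Rnf213, exon 28 of 67, chr11:119442664-119442738, plus strand, 75 bases: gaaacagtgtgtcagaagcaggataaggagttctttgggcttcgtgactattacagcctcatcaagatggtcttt
Top2a, exon 31 of 36, chr11:98995906-98995955, minus strand, 50 bases: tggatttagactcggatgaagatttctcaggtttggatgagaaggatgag

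Internal exon peaks made up 24.6 to 28.2% of each list. DMSO Pre held 795 among 2824 peaks (28.2%, interval 26.5 to 29.8), DMSO MCE 1306 among 5128 (25.5%, 24.3 to 26.7), DMSO Diff 821 among 2944 (27.9%, 26.3 to 29.5) and rhein MCE 756 among 3069 (24.6%, 23.1 to 26.2). The number was highest in DMSO MCE, the longest list, while the share was highest in DMSO Pre. Rhein MCE had 550 fewer internal exon peaks than DMSO MCE, and the intervals of their shares overlapped. Last exons held 8.67 to 10.5% of the peaks and first exons 3.12 to 3.91%. Peaks annotated to a UTR formed classes of their own, with 43.3 to 44.8% in the 3′ UTR and 7.97 to 10.5% in the 5′ UTR. The last and first exon classes, here and below, leave those peaks out.

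The annotation was checked against GENCODE M21, the gene models of this assembly. Exon number and exon total matched for each transcript found there (789 of 795 members in DMSO Pre and 1296 of 1306 in DMSO MCE), and each of these peaks overlapped its named exon. The named transcript lay on the strand of the peak for 781 members for DMSO Pre, 1284 for DMSO MCE, 813 for DMSO Diff and 738 for rhein MCE, and the values below are over these. Their midpoints fell in the coding sequence for 93.2 to 95.6% and in a UTR for none. UTR peaks carry an annotation of their own, so this share only separates coding from non-coding transcripts. The remaining 34 to 57 members a list were on non-coding transcripts, 10 to 27 of them on transcripts classed as retained introns. Second exons held 15.2 to 19.4% of the members and next-to-last exons 11.5 to 14.2%. On the longest coding transcript of the locus, 89.9 to 93.6% of the placed midpoints were again in an internal exon, and 49 to 120 midpoints a list fell in a first or last exon there. The median width was 100 exonic bases in each list, and 86.2 to 89.6% of the widths were multiples of 25 bases.

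The exons that held a peak were longer than internal exons in general. Their median length, each exon counted once, was 248 bases for DMSO Pre (214 to 322, 644 exons), 242 for DMSO MCE (221 to 271, 1076 exons), 190 for DMSO Diff (180 to 205, 687 exons) and 200.5 for rhein MCE (183 to 222, 630 exons). All internal exons of the same transcripts had medians of 131 to 134 bases. The middle of the distribution was wide, with quartiles of 139 and 829 bases in DMSO Pre and 126 and 689.5 in DMSO Diff. Exon counts by length fell less steeply with a peak than without regard to peaks. In DMSO Pre 221 exons with a peak had 100 to under 200 bases, 88 had 200 to under 400 and 114 had 400 to under 800, while among all internal exons these classes fell from 4425 to 1021 to 216. The increase to the longest of these classes was not seen in every list, since the same classes held 348, 169 and 172 exons with a peak for DMSO MCE, 264, 89 and 87 for DMSO Diff and 224, 105 and 72 for rhein MCE.

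Exons of 400 bases or more accounted for most of the excess. They were 43.5% (39.7 to 47.3) of the exons with a peak for DMSO Pre, 40.5% (37.6 to 43.5) for DMSO MCE, 34.9% (31.5 to 38.6) for DMSO Diff and 33.5% (29.9 to 37.3) for rhein MCE, and 5.10 to 5.56% of all internal exons of the same transcripts. A long exon also offers more bases, and 33.7 to 35.1% of all internal exon bases lay in long exons. By peaks, 51.5% (48.0 to 55.0) of the members for DMSO Pre, 48.4% (45.6 to 51.1) for DMSO MCE, 42.7% (39.3 to 46.1) for DMSO Diff and 41.6% (38.1 to 45.2) for rhein MCE were in long exons, so the excess over the bases was smaller than over the exons, and smallest for DMSO Diff and rhein MCE. Of the long internal exons of these transcripts 60.3 to 66.0% held a peak, against 4.82 to 6.49% of the shorter ones. The transcripts were taken because they held a member, so these last shares describe genes with a peak and not all expressed genes.

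**Figure D1:**
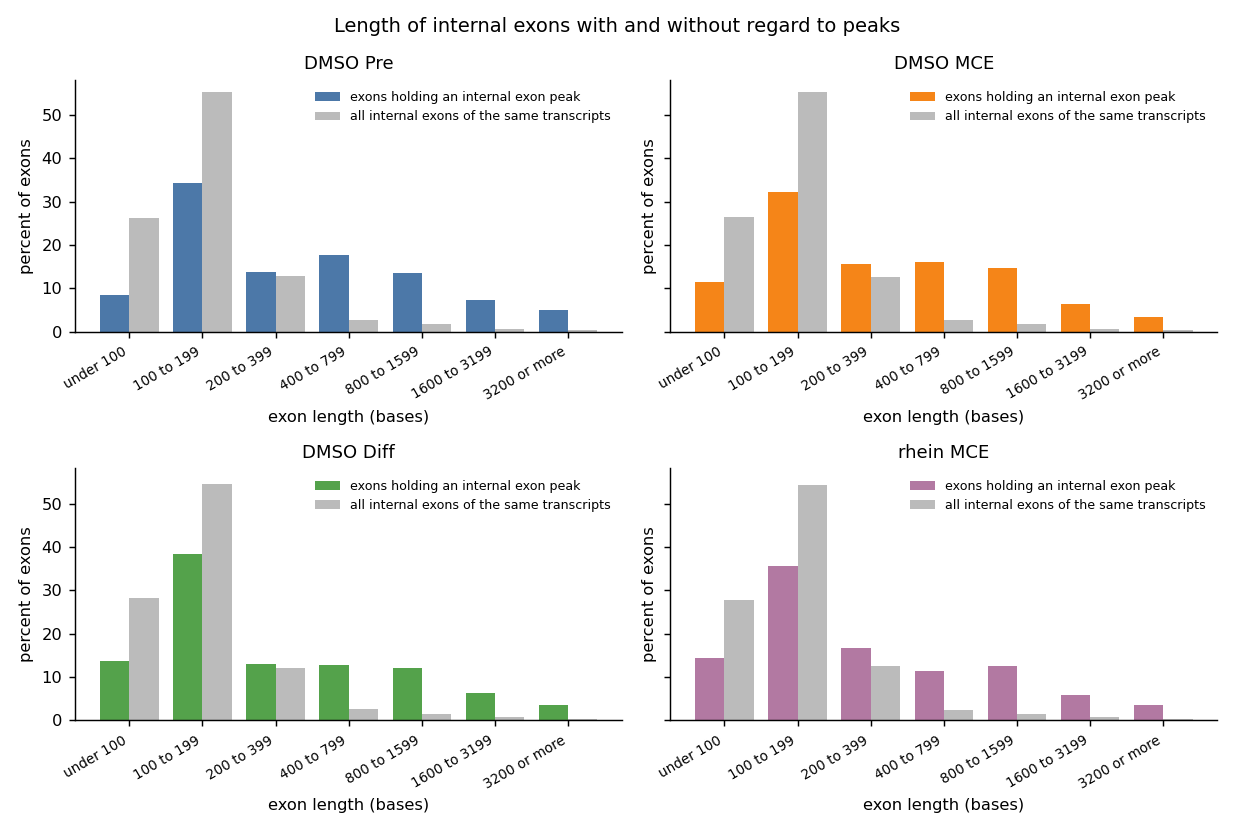
Percent of exons (vertical axis) by exon length in bases (horizontal axis) in the 4 lists, with coloured bars for exons that held an internal exon peak and grey bars for all internal exons of the same transcripts. Exons of 100 to under 200 bases were 32.3 to 38.4% of the exons with a peak and 54.4 to 55.4% of all internal exons, while each class from 400 bases up was larger among the exons with a peak.

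Distance to a splice junction was measured from the midpoint of the part of a peak inside its named exon to the nearer end of that exon. Where a peak ran into further exons, those parts were left out of this midpoint. Its median was 97 bases for DMSO Pre (81 to 124), 90 for DMSO MCE (82 to 106), 68 for DMSO Diff (61 to 80) and 67 for rhein MCE (59 to 80). Within 100 bases of a junction lay 50.2% of the midpoints for DMSO Pre, 51.5% for DMSO MCE, 58.1% for DMSO Diff and 58.3% for rhein MCE, fewer than the 67.6 to 68.7% of internal exon bases that are as close. In long exons the zone next to the junctions was sparser still. Of the members in exons of 400 bases or more, 9.20% (6.75 to 12.4) for DMSO Pre, 7.57% (5.74 to 9.92) for DMSO MCE, 7.49% (5.16 to 10.8) for DMSO Diff and 9.45% (6.66 to 13.2) for rhein MCE had their midpoint within 100 bases of a junction, where 15.4 to 16.7% of the bases of such exons lie. A peak of 100 bases or more that stays inside its exon has its midpoint at least 50 bases from an end, and a wider one farther still. Members in long exons had a median width of 125 to 150 exonic bases, and 5.15 to 6.97% of them crossed an exon end. Peak width therefore bears on the shares within 100 bases, and its part in them was not tested.

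Per base, over exons of all lengths, the midpoints were densest at 200 to under 400 bases from a junction. For this profile the midpoint was that of the whole exonic part of a peak, and it was counted where it fell in an internal exon. That left 772 midpoints for DMSO Pre, 1258 for DMSO MCE, 792 for DMSO Diff and 722 for rhein MCE. Only long exons have bases this far from both ends, while exons of every length have bases near a junction. Distance and exon length were not separated in this profile. There were 103 midpoints per 100 kb of internal exon at this distance for DMSO Pre, 116 for DMSO MCE, 93.4 for DMSO Diff and 97.1 for rhein MCE. Within 25 bases the density was 31.6, 36.5, 47.2 and 44.2 in the same order. Beyond 800 bases it was 50.2, 51.8, 46.4 and 44.1, below the value at 200 to under 400 bases in each list. The density next to junctions was higher in DMSO Diff and rhein MCE than in DMSO Pre, and the density at 200 to under 400 bases was lower.

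Counting GGAC copies in place of midpoints, again over exons of all lengths, gave the same picture. In DMSO Pre 265 of 5421 GGAC copies within 100 bases of a junction lay under a member (4.89%, 4.35 to 5.50) and 528 of 2559 farther away (20.6%, 19.1 to 22.2). The same shares were 5.04% and 21.3% for DMSO MCE, 6.53% and 16.4% for DMSO Diff, and 6.32% and 18.7% for rhein MCE. The share was highest at 200 to under 400 bases, with 28.4% for DMSO Pre, 29.6% for DMSO MCE, 20.1% for DMSO Diff and 27.1% for rhein MCE.

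**Figure D2:**
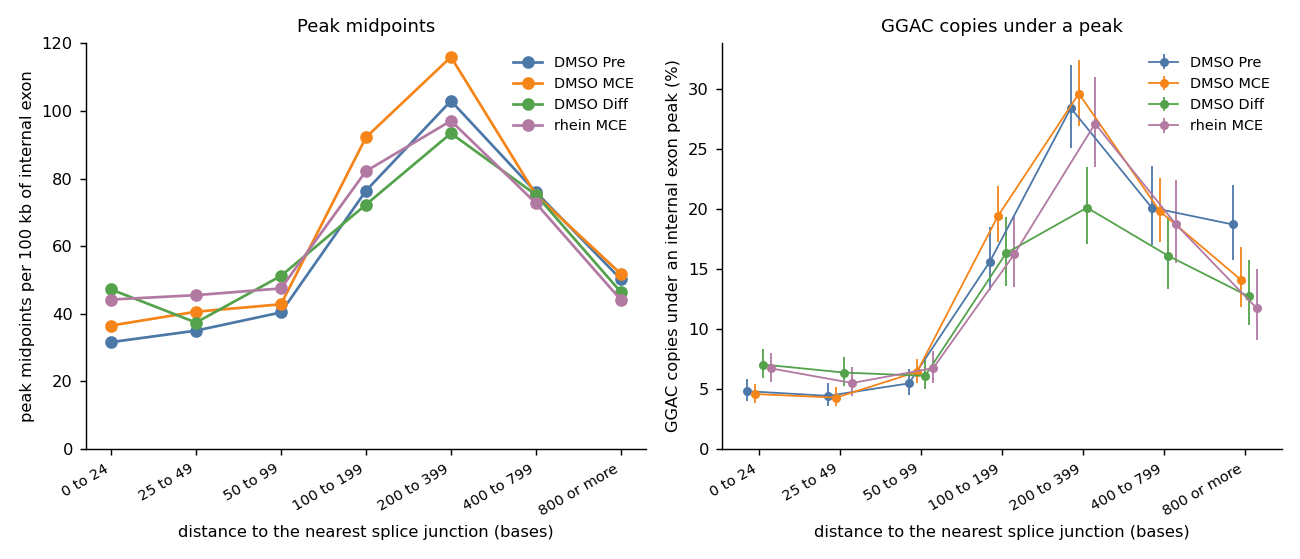
Left, peak midpoints per 100 kb of internal exon, and right, percent of GGAC copies under an internal exon peak with 95% Wilson intervals, both by distance to the nearest splice junction in bases, 1 line per list. Both measures pool exons of all lengths. They were highest at 200 to under 400 bases in each list. In any list and distance class, 4.27 to 7.03% of the GGAC copies within 100 bases were under a peak.

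Many of the peaks in short exons ran past an end of the named exon. The listed span crossed an end of the named exon in 33.5% (30.3 to 36.9) of the members for DMSO Pre and 35.4% (32.9 to 38.1) for DMSO MCE. It did so in 40.8% (37.5 to 44.3) for DMSO Diff and 41.7% (38.2 to 45.3) for rhein MCE. In exons under 200 bases this share was 68.6 to 76.7%, and in exons of 400 bases or more 5.15 to 6.97%. Peaks touching 2 exons of the named transcript numbered 161 for DMSO Pre, 274 for DMSO MCE, 203 for DMSO Diff and 187 for rhein MCE. Those touching 3 or more numbered 41, 63, 62 and 59 in the same order. The most extended, for DMSO Diff, touched 14 exons. The other crossing peaks ran past the named exon without reaching a second exon of that transcript. For peaks inside 1 exon the median distance to a junction was 238, 211, 207 and 207 bases in the 4 lists. Of the long-exon peaks inside 1 exon, 44.7% for DMSO Pre, 44.8% for DMSO MCE, 44.8% for DMSO Diff and 41.9% for rhein MCE lay in the 5′ part of the exon, up to its middle. The upper ends of these intervals were 49.7, 48.9, 50.2 and 47.7%.

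GGAC, searched on the transcript strand, occurred in the exonic part of 52.5% (49.0 to 56.0) of the members for DMSO Pre, 49.8% (47.1 to 52.6) for DMSO MCE, 47.1% (43.7 to 50.5) for DMSO Diff and 50.7% (47.1 to 54.3) for rhein MCE. Last exon peaks had it in 52.4 to 58.6%. Peaks differ in width, so windows of 100 bases were compared as well. A window around the midpoint held GGAC for 53.4, 50.6, 47.6 and 49.7% of the members in the 4 lists, while of all 100-base windows centred on an internal exon base of the same transcripts 36.7 to 37.9% held it. The looser DRACH sequence, which contains GGAC where the next base is A, C or T, was in 89.4 to 92.7% of the member windows and 88.4 to 89.3% of all windows.

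The excess of GGAC was largest in long exons. In exons of 400 bases or more, 57.7% (52.8 to 62.4) of the windows around a member held GGAC for DMSO Pre, 60.9% (57.0 to 64.6) for DMSO MCE, 55.6% (50.4 to 60.8) for DMSO Diff and 59.9% (54.4 to 65.3) for rhein MCE, against 37.2 to 37.7% of all windows in such exons. In exons under 200 bases the shares were 47.0% (41.3 to 52.8), 37.9% (33.7 to 42.3), 40.5% (35.7 to 45.6) and 41.6% (36.4 to 47.1), against 37.9, 36.1, 35.8 and 37.5% of all windows. Exons of 200 to under 400 bases lay between, with 54.2% (44.2 to 63.8), 49.4% (42.2 to 56.7), 45.8% (36.2 to 55.8) and 45.0% (35.9 to 54.3), against 39.3, 38.2, 38.1 and 39.1% of all windows. The interval lay above the share of all windows in 1 of the 4 lists for exons under 200 bases (DMSO Pre), in 2 for exons of 200 to under 400 bases (DMSO Pre and DMSO MCE), and in 4 of 4 for long exons. Within the long exons GGAC was also denser under the peaks than in the rest of the same exons, with 7.95 against 4.49 copies per kb for DMSO Pre, 8.26 against 4.59 for DMSO MCE, 7.25 against 4.70 for DMSO Diff and 7.82 against 4.50 for rhein MCE. In exons under 200 bases the ratio of these densities was between 0.871 for DMSO Pre and 1.32 for rhein MCE.

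Internal exon peaks recurred between lists less often than listed peaks as a whole. A peak was taken as shared when it had at least 1 base in common, on the same chromosome and strand, with any peak of the other list. Of the members in DMSO Pre, the peaks of DMSO MCE overlapped 34.8% (31.6 to 38.2), those of DMSO Diff overlapped 29.1% (26.0 to 32.3) and those of rhein MCE overlapped 26.0% (23.1 to 29.2), beside 45.1, 38.5 and 36.5% of all listed peaks. Of the members in DMSO MCE, the peaks of DMSO Pre overlapped 21.1% (19.0 to 23.4), those of DMSO Diff overlapped 23.0% (20.8 to 25.3) and those of rhein MCE overlapped 25.0% (22.7 to 27.4), beside 25.0, 26.2 and 32.3% of all peaks. Of the members in DMSO Diff, the peaks of DMSO Pre overlapped 27.6% (24.7 to 30.8), those of DMSO MCE overlapped 38.9% (35.6 to 42.2) and those of rhein MCE overlapped 29.2% (26.2 to 32.4), beside 36.3, 46.1 and 40.3%. Of the members in rhein MCE, the peaks of DMSO Pre overlapped 27.4% (24.3 to 30.7), those of DMSO MCE overlapped 43.8% (40.3 to 47.3) and those of DMSO Diff overlapped 31.3% (28.1 to 34.7), beside 33.7, 53.6 and 37.9%. In each of the 12 directions the share of members was below that of all peaks, which include the members, and the intervals were apart in 11 of them. Both directions of a pair rest on largely the same overlaps, and each list enters several pairs. Counts of directions, here and below, are therefore not counts of independent results. It was also below the share of last exon peaks in 12 of 12 directions, with the intervals apart in 10. First exon peaks recurred less often than members for DMSO Pre in DMSO Diff (28.8 against 29.1%). They also did so for DMSO MCE in DMSO Pre (19 against 21.1%) and in DMSO Diff (15.5 against 23.0%). For rhein MCE in DMSO Diff the shares were 28.3 against 31.3%, and in the other directions first exon peaks recurred more often than members. A longer list gives more chances to overlap, and DMSO MCE was the longest.

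Exon length divided the members in this respect. Of the members of DMSO Pre in exons of 400 bases or more 48.8% (43.9 to 53.6) were shared with DMSO MCE, and of those in exons under 200 bases 17.3% (13.4 to 22.2). For the members of rhein MCE in DMSO MCE the shares were 61.2% (55.7 to 66.5) and 29.2% (24.5 to 34.4), and for those of DMSO Diff in DMSO MCE 58.8% (53.5 to 63.8) and 21.4% (17.5 to 25.8). The intervals were apart in 12 of 12 directions, and the long-exon members were above all listed peaks in 9. Long-exon members were wider, with a median of 125 to 150 exonic bases against 75 to 98.5 in exons under 200 bases, and the part of width in this difference was not tested. Peaks inside 1 exon recurred more often than those crossing an exon end in 12 of 12 directions, with the intervals apart in 7.

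**Figure D3:**
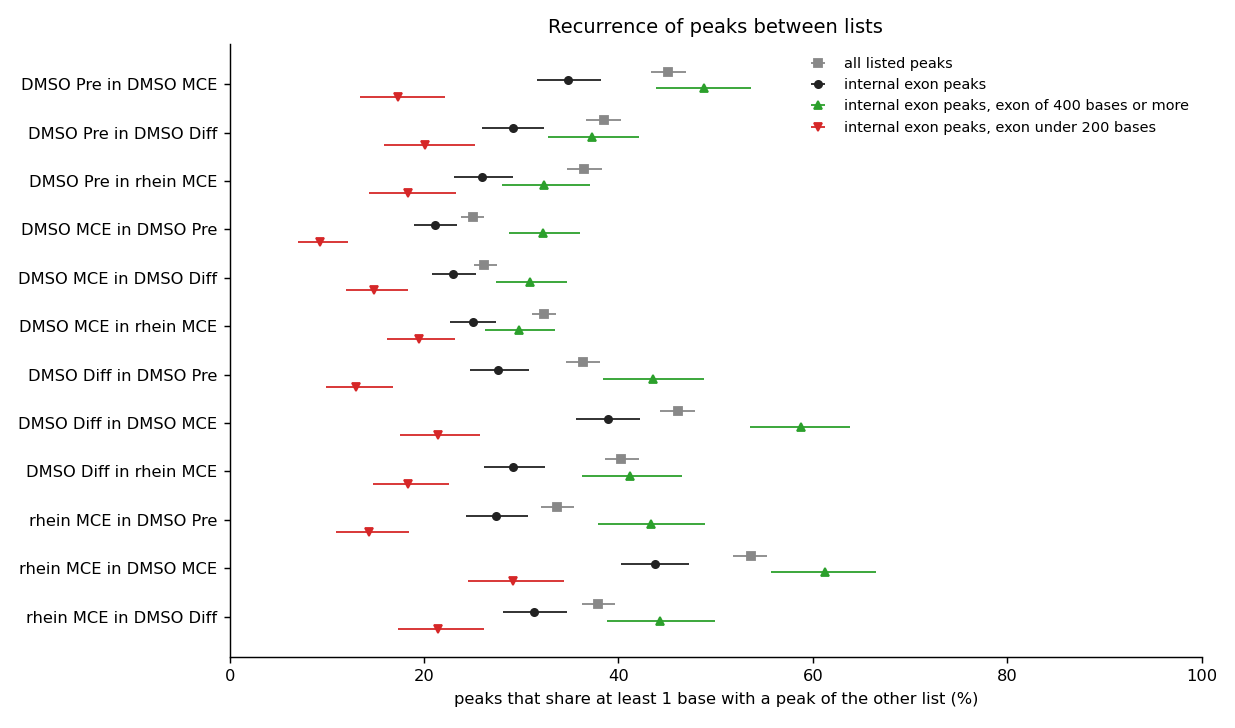
Percent of the peaks of one list that share at least 1 base with a peak of another list (horizontal axis) for the 12 pairs in each direction (vertical axis), with 95% Wilson intervals, for all listed peaks, all internal exon peaks, and internal exon peaks in long and in short exons. Short-exon peaks lay at 9.32 to 29.2% and long-exon peaks at 29.8 to 61.2%.

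Merged over the lists, the members formed 2565 loci. Of these, 105 were in all 4 lists, 146 in 3, 383 in 2 and 1931 in 1. DMSO MCE alone held 782 loci, DMSO Pre alone 414, DMSO Diff alone 398 and rhein MCE alone 337. Of the members of DMSO Pre, DMSO MCE, DMSO Diff and rhein MCE, 50.2, 58.5, 46.5 and 42.9% overlapped no peak of another list. Over all listed peaks these shares were 38.6, 52.7, 36.3 and 32.1%. Shared with all 3 other lists were 13.6, 8.04, 12.8 and 13.4% of the members, beside 19.7, 11.1, 19.2 and 17.9% of all listed peaks. The most frequent pair was DMSO MCE with rhein MCE (98 loci), followed by DMSO Pre with DMSO MCE (80) and DMSO MCE with DMSO Diff (79). Of the loci in 3 lists, 60 lacked DMSO Pre, 38 lacked DMSO Diff, 33 lacked rhein MCE and 15 lacked DMSO MCE.

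Peaks shared by more lists held GGAC more often and lay more often in a long exon, except that in DMSO MCE the GGAC share was 60.7% with 1 other list and 59.7% with 2. Among members found in no other list GGAC was in 43.1% of 390 for DMSO Pre, 40.2% of 753 for DMSO MCE, 34.0% of 379 for DMSO Diff and 36.3% of 317 for rhein MCE. Among those shared with all 3 other lists it was in 76.4% (67.5 to 83.5) of 106, 76.5% (67.4 to 83.6) of 102, 72.8% (63.5 to 80.5) of 103 and 76.8% (67.5 to 84.0) of 99. Shared peaks were wider, with a median of 200 to 225 bases against 75. In the fixed 100-base window the shares were 48.7% against 62.3% for DMSO Pre, 44.2% against 64.7% for DMSO MCE, 38.8% against 63.1% for DMSO Diff and 40.1% against 67.7% for rhein MCE, so the difference was smaller but of the same sign. In DMSO Pre the window intervals overlapped (43.8 to 53.7 and 52.8 to 70.9). Long exons held 72.6 to 77.5% of the members shared with all other lists and 22.7 to 38.8% of those found in no other list.

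**Figure D4:**
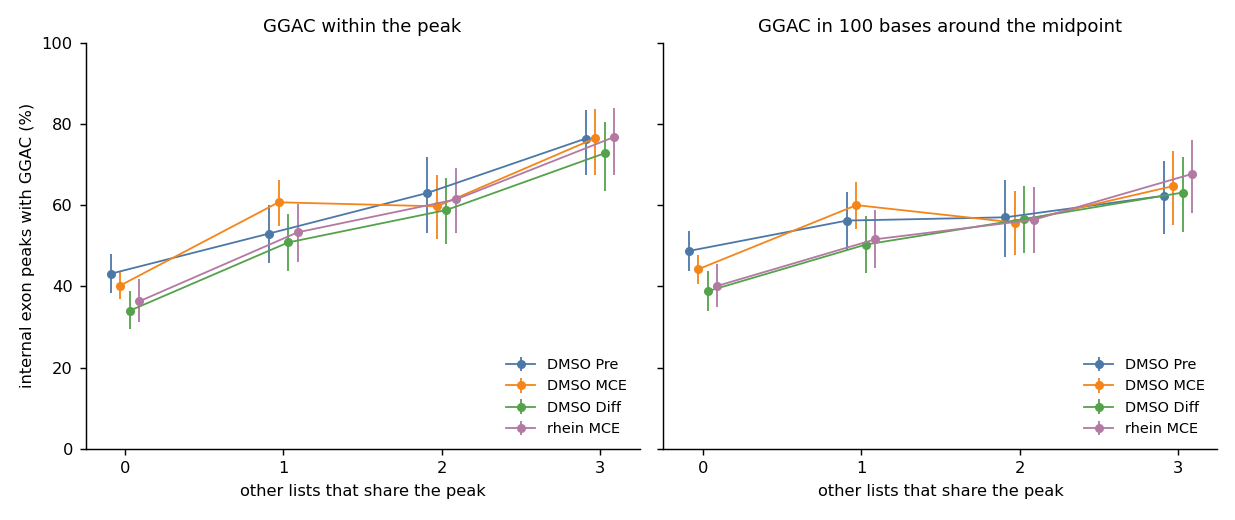
Percent of internal exon peaks with GGAC (vertical axis) by the number of other lists that share the peak (horizontal axis), within the peak (left) and in 100 bases around its midpoint (right), 1 line per list with 95% Wilson intervals. From 0 to 3 other lists the share rose from between 34.0 and 43.1% to between 72.8 and 76.8% within the peak, and from between 38.8 and 48.7% to between 62.3 and 67.7% in the window.

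The peaks found in all 4 lists with the best ranks throughout were in Vcan, Tnks1bp1, Sec62, Rrbp1, Usp47 and Usp9x. The single value the lists give for each peak is called the score, and it reads like an adjusted p-value on a negative log2 scale. It depends on depth and is compared here by rank within a list. The first Vcan peak printed above, in the large exon that codes for the chondroitin sulfate attachment region of versican, a matrix proteoglycan, ranked 74 of 2824 for DMSO Pre, 35 of 5128 for DMSO MCE, 3 of 2944 for DMSO Diff and 57 of 3069 for rhein MCE. The second ranked 186, 33, 2 and 157 in the same lists. In DMSO Diff these peaks were much wider, with 1275 and 1775 exonic bases against 275 and 125 in DMSO Pre. Tnks1bp1, a protein that binds tankyrase, had its peak at ranks 29, 46, 40 and 86. It was annotated on a non-coding transcript whose 1642-base exon ends before the peak does. Rrbp1, a ribosome-binding protein of the endoplasmic reticulum, had a pair of such peaks in its 2119-base exon 2 of 24, which in rhein MCE were 1 peak at rank 67. The peaks of the deubiquitinating enzymes Usp47 (exon 20 of 28, 781 bases) and Usp9x (exon 35 of 45, 754 bases) ranked 188 and 160 for DMSO Pre, and 317 and 328 for rhein MCE. Sec62, part of the protein translocation channel of the endoplasmic reticulum, was the exception in structure, since its peak joined 2 exons, the named one being 205 bases long, and held no GGAC. Each of the others held 1 to 4 copies for DMSO Pre.

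Few genes carried many members. A list named 494 to 842 genes, and 10.7 to 11.9% of them had 3 or more members. These were 55 genes for DMSO Pre, 98 for DMSO MCE, 60 for DMSO Diff and 53 for rhein MCE. The 10 genes with the most members over the 4 lists held 246 in all, and 7 of them had a member in every list.

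Vcan led with 6 members for DMSO Pre, 6 for DMSO MCE, 12 for DMSO Diff and 10 for rhein MCE. Of its 34 members 20 lay in the 5217-base exon 8 of 15 (chr13:89688285-89693501). Prune2 had 2, 8, 15 and 4 members, of which 28 lay in its 6550-base exon 8 of 20 (chr19:17118043-17124592), so the number was highest in DMSO Diff and lowest in DMSO Pre. Plec, the cytoskeletal linker plectin, had 5, 8, 7 and 9 members, 22 of them in the 3381-base exon 32 of 33 (chr15:76178519-76181899). Emilin1, an elastic fibre protein, had 4, 3, 6 and 5 members, 16 of them in the 1926-base exon 4 of 8 (chr5:30916934-30918859). Atrx, a chromatin remodeller, had 4, 7, 4 and 2 members, 12 of them in the 3014-base exon 9 of 35 (chrX:105874560-105877573). Fbln2, the matrix protein fibulin, had 4, 5, 3 and 5 members, 10 of them in the 1289-base exon 2 of 17 (chr6:91233063-91234351). In these 6 genes 1 long exon thus gave most of the members, and GGAC was in 20 of the 29 members of Prune2, 15 of 34 of Vcan and 3 of 17 of Atrx.

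The other 4 genes differed in where or when their peaks were listed. Rnf213, a giant E3 ubiquitin ligase, had 30 members for DMSO Pre, 2 for DMSO MCE and 0 for DMSO Diff and rhein MCE, in 20 different exons. Listed peaks of any kind in Rnf213 numbered 33, 2, 0 and 0, so its whole transcript followed this order. Top2a, the DNA topoisomerase of dividing cells, went the other way with 0 for DMSO Pre, 9 for DMSO MCE, 7 for DMSO Diff and 6 for rhein MCE. Its members lay in 15 different exons of at most 213 bases, and 18 of the 22 crossed an exon end. Akap11, an anchoring protein for protein kinase A, had 0, 9, 8 and 7 members, 15 of them in the 4441-base exon 7 of 12 (chr14:78509880-78514320). Nid1, the basement membrane protein nidogen, had 3, 5, 9 and 7 members in 10 exons of at most 300 bases, of which 17 of 24 crossed an exon end. Changes in the amount of these RNAs between stages were not measured in the lists, and their part in these numbers was not tested.

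**Figure D5:**
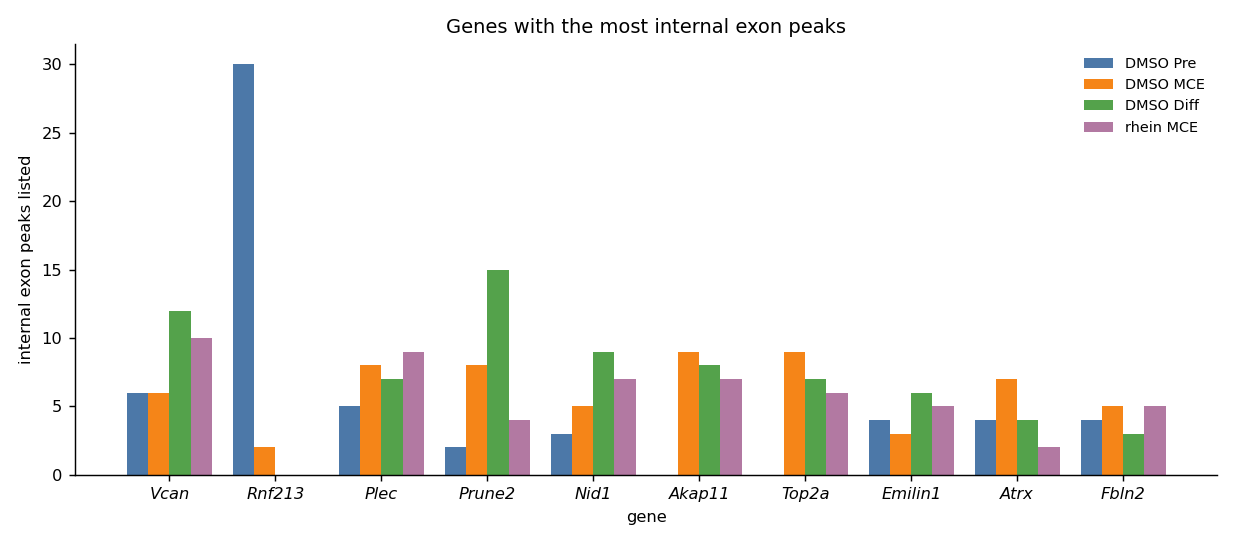
Number of internal exon peaks listed (vertical axis) in the 10 genes with the most (horizontal axis), 1 bar per list. Rnf213 stands at 30 for DMSO Pre and 0 for DMSO Diff and rhein MCE, while Akap11 and Top2a stand at 0 for DMSO Pre and at 6 to 9 in the other lists.

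The longest exons with a member were those of Map1a (8104 bases, exon 5 of 7, chr2:121299269-121307372), Spen (8020 bases, exon 11 of 15, chr4:141471370-141479389), Mki67 (6836 bases, exon 12 of 14, chr7:135694232-135701067), Srrm2 (6569 bases, exon 11 of 15, chr17:23815122-23821690) and Prune2. The exon of Map1a, a microtubule-associated protein, held 4, 5, 3 and 2 members in DMSO Pre, DMSO MCE, DMSO Diff and rhein MCE, all at least 367 bases from a junction. That of Spen, a transcriptional repressor, held 0, 1, 0 and 2, the nearest at 2606 bases. The exon of Mki67, which codes for the proliferation marker Ki-67, held 5 members for DMSO MCE, 1 for rhein MCE and 0 for DMSO Pre and DMSO Diff. That of Srrm2, a splicing cofactor, held 1, 1, 1 and 0. Over the 4 lists the 5 longest exons thus held between 3 and 28 members.

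The highest scores were not typical of the members. The median score was 7.35 for DMSO Pre, 6.93 for DMSO MCE, 8.0 for DMSO Diff and 7.64 for rhein MCE, beside 7.82, 7.18, 8.27 and 7.96 over all listed peaks. In each list 17 to 23 members passed a score of 33.2, which would be an adjusted p of 1e-10 if the scale is read rightly. In DMSO Pre the 3 best were in Pdgfra (score 144, exon 15 of 16, 154 bases), the growth factor receptor of preadipocytes, Mmp2 (87.8, exon 9 of 13, 142 bases), a matrix protease, and Gas5 (85.3), a non-coding host of small nucleolar RNAs. All 3 were narrow, with 24 to 87 exonic bases, and without GGAC, and those of Pdgfra and Mmp2 were in no other list. In DMSO MCE they were in the long exon of Plec (94.5), in Pde10a (92.8) and in Otx2os1 (77.1). The Pde10a peak was on a transcript classed as a retained intron, had its partner at 96.6 for DMSO Diff and 144 for rhein MCE and none for DMSO Pre, and held no GGAC. The Otx2os1 peak, on a long non-coding RNA, had one and the same span in all 4 lists, with scores of 5.08 for DMSO Pre, 77.1 for DMSO MCE, 7.17 for DMSO Diff and 7.15 for rhein MCE. In DMSO Diff both Vcan peaks (338 and 194) led, followed by Col6a1 (156), a collagen VI chain, whose peak ran over 14 short exons. In rhein MCE a peak of Col6a2 (100.2) over 6 exons and a peak with the symbol Tnxb (79.8), whose named transcript was not in the annotation used here, followed Pde10a.

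The share of genes with a member differed between fixed gene lists. These lists were chosen with earlier results of these data known, which bears on any comparison of their shares with all genes. Of 30 chromatin regulators 22 (73.3%) had a member in at least 1 list, of 30 cytoskeleton genes 21 (70%), of 30 extracellular matrix genes 17 (56.7%) and of 30 genes for RNA binding and splicing 16 (53.3%). Of all 21924 protein-coding genes 6.05% had one, and 16.4% had any listed peak. By list, 483 protein-coding genes had a member for DMSO Pre (2.20% of all), 831 for DMSO MCE (3.79%), 489 for DMSO Diff (2.23%) and 485 for rhein MCE (2.21%), so the number was highest in DMSO MCE before any group of genes was looked at, and the counts of each group by list are to be read beside these. Differences in length and expression between genes were not taken into account, so these shares describe the lists and were not tested. Of 30 genes of adipogenesis and lipid metabolism 2 had a member (6.67%), although 12 had a listed peak of some kind. The 2 were Nr3c1, the glucocorticoid receptor, with 1, 1, 2 and 0 members in a 1248-base exon, and Acly, which makes acetyl-CoA for lipid synthesis, with 0, 2, 0 and 2. None of the 20 markers of other cell types had a member.

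More genes of cell division had a member in DMSO MCE than in DMSO Pre, as was so over all genes (831 against 483), while fewer matrix genes did. Of 30 mitosis and centrosome genes 2 had a member for DMSO Pre, 7 for DMSO MCE, 2 for DMSO Diff and 6 for rhein MCE, with 3, 25, 9 and 15 members in all. From DMSO Pre to DMSO MCE the number was higher for 7 of these genes and lower for 2. Mki67 had 0, 8, 0 and 3, Incenp, a subunit of the chromosomal passenger complex, 0, 4, 0 and 3, and Ckap5, a microtubule polymerase, 0, 1, 2 and 1. The 2 genes with fewer were Numa1, with 2, 0, 0 and 1, and Tpx2, with 1, 0, 0 and 1. Of 30 genes of DNA replication and repair 1, 7, 1 and 3 had a member. Mcm2 and Mcm3, subunits of the replicative helicase, each had 0, 1, 0 and 1, and Mdc1, a mediator of the DNA damage checkpoint, 0, 2, 0 and 1, while Rif1, a regulator of replication timing, had 1, 1, 1 and 0 in its 3090-base exon. Of 30 matrix genes 13 had a member for DMSO Pre, 6 for DMSO MCE, 14 for DMSO Diff and 8 for rhein MCE, with 48, 19, 62 and 30 members. From DMSO Pre to DMSO MCE the number was lower for 10 of these genes, the same for 1 and higher for 3. Vcan (6 and 6), Nid1 (3 and 5) and Fbln2 (4 and 5), described above, had no fewer in DMSO MCE and held 16 of the 19 members there. Thbs2, a thrombospondin, had 5, 1, 1 and 1. Among the genes with fewer, and chosen after their values were seen, Col6a3 had 9, 0, 3 and 1, Lamb1 2, 0, 5 and 0, Lamc1 2, 0, 3 and 0, and Thbs1 8, 0, 0 and 0. Listed peaks of any kind showed a like pattern in both groups, with 3, 8, 2 and 6 mitosis genes and 18, 13, 18 and 13 matrix genes having any peak, and the part of RNA abundance in these counts was not tested.

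Receptors at the cell surface had members for 9, 5, 9 and 5 of 30 genes, beside 483, 831, 489 and 485 of all protein-coding genes. Fat1, a giant cadherin, had 5, 4, 2 and 5, Lrp6, a Wnt co-receptor, 1 in each list in its 394-base exon 2 of 23, and Met, the receptor of hepatocyte growth factor, 5, 1, 5 and 0. Among chromatin regulators 9, 17, 12 and 7 of 30 genes had a member, and the higher number in DMSO MCE was near that over all genes in proportion. The histone methyltransferase Kmt2d had 5, 3, 4 and 3, the remodeller Chd4 2, 2, 3 and 4, the corepressor Ncor1 1, 4, 1 and 2, and the demethylase Kdm6b 1, 2, 1 and 2, each of them with GGAC in its 2168-base exon 11 of 23. Among cytoskeleton genes 13, 14, 9 and 12 of 30 had a member, with Flnc at 1, 5, 1 and 3 and Myh9 at 1, 2, 1 and 5. Among insulin and mTOR signalling genes 2, 3, 6 and 2 of 30 did. Foxo3, a transcription factor restrained by insulin, had 0, 1, 2 and 3, Sos1 1, 1, 1 and 0, and Akt1 0, 1, 0 and 0. Among genes for RNA binding and splicing 9, 9, 7 and 12 did, with Son at 6, 2, 3 and 4 (14 of 15 in its 5970-base exon 3 of 12), Hnrnpm at 2, 1, 2 and 2, Prpf4b at 1, 3, 2 and 1 and Larp1 at 1, 2, 1 and 1.

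Genes of the m6A machinery also had members. Of 20 genes 8 (40%) had a member in at least 1 list and 13 (65%) a listed peak of any kind, beside 6.05 and 16.4% of all protein-coding genes, and these shares were not tested. By list 4 genes had a member for DMSO Pre, 6 for DMSO MCE, 4 for DMSO Diff and 6 for rhein MCE, and the same 4 genes had one in every list. These were the readers Ythdf1, with 2 members in each list, Ythdf2, with 1, 2, 1 and 1, and Ythdf3, with 1, 3, 1 and 1, and Zc3h13, a subunit of the methyltransferase complex, with 1, 3, 1 and 3. All 19 members of the readers lay in exon 4 of 5, of 1521 bases in Ythdf1, 1584 in Ythdf2 and 1599 in Ythdf3. GGAC was in 8 of 8 members of Ythdf1, 4 of 5 of Ythdf2 and 4 of 6 of Ythdf3. Their scores were moderate, at most 14.5 in Ythdf1, 8.07 in Ythdf2 and 10.7 in Ythdf3.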

How the data were processed

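There were 10 MeRIP-seq libraries, an IP and an input for each of 5 conditions. As the study's methods and processing notes state, read trimming used Trim Galore (0.6.5) and alignment to mm10 used HISAT2 (2.1.0). Duplicates were taken out with Picard (2.23.5) and poorly mapped reads with SAMtools (1.9). Peak calling was left at the exomePeak2 defaults, and ChIPseeker (1.26) gave the annotation. Which libraries entered the call of each list is not given in the sources used here. The lists deposited by the authors held a score for each peak, under a header that speaks of a log2 fold change. Scores ran from 4.19 to 735, which a log2 fold change cannot reach, and were taken as adjusted p-values on a negative log2 scale. The lists do not state this scale, and the reading was not checked. ChIPseeker names an exon without regard to strand, so transcripts on the other strand were left out of positions and motifs. Genes were taken from the named transcript, because the symbol in the lists differed for 11.4 to 12.6% of the members. Positions and sequences used GENCODE M21 (GRCm38).

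The depth per sample was not given in the lists, which limits the precision to counting error over peaks. No test was made, since no condition had a second library pair. Intervals are 95% Wilson or order-statistic intervals. The members and gene lists were chosen with earlier results of these data known. Named genes were the 10 with the most members, the 3 highest scores a list, the 5 longest exons, the 8 best-ranked DMSO Pre peaks found in all 4 lists, and up to 4 per gene list. The values of 1 gene and the sequence of 1 peak are not reported here. Alternatives were a stricter score, other transcript choices, other overlap rules, windows and motifs. Python 3.11.15, pandas 2.3.3 and NumPy 2.4.6 were used, and the procedures were tested on simulated data.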

Additional observations from a re-analysis of the deposited data

Results flagged for a closer look

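Opposite differences between rhein and DMSO at the MCE and the differentiation stage were found for 2 measures, with 1 library pair a condition, so that the difference between the stages was not tested. The median length of the exons with a member was lower by 41 bases in rhein than in DMSO at MCE (a difference of -41) and higher by 11 bases at differentiation. The median score of the members was higher by 0.709 at MCE and lower at differentiation (a difference of -0.347). The rhein lists of both stages were almost the same list, so the signs follow from the DMSO lists alone.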

How the results depend on the processing

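No paired analysis was possible because no result comes from a test and each condition had 1 library pair. Of 104 alternative values, 57 stayed within the interval of the reported value or within 1.5 times the count, among them all that used the authors' symbol, coding transcripts only, 0.5 of the shorter span or exonic bases for sharing, and the 100-base window for GGAC. Values are given as DMSO Pre, DMSO MCE, DMSO Diff and rhein MCE. A score above 33.2 (adjusted p below 1e-10 on the assumed scale) left 17, 22, 23 and 21 members, and 0, 2, 1 and 1 genes with 3 or more. Among these few peaks the median exon length was 662 bases for DMSO MCE and 675 for rhein MCE, the median distance to a junction was 77, 249, 57 and 268 bases, and the GGAC share was 76.2% for DMSO MCE, 65.2% for DMSO Diff and 66.7% for rhein MCE. Another setting placed all peaks annotated to an exon, not the members only, on the longest coding transcript. It kept the 751, 1179, 733 and 673 peaks whose midpoint fell in an internal exon there. Their median exon length was 355, 333, 207 and 226 bases. The median distance, from the midpoint of the whole exonic part, was 143, 133, 88 and 90. With each peak counted once, the median exon length was 431, 352, 223 and 241. To the nearest edge of the peak the median distance was 41, 36, 16 and 15 bases, and for peaks inside 1 exon, an alternative chosen after seeing the data together with coding transcripts only, 238, 211, 207 and 207. DRACH in place of GGAC was in 87.6, 86.6, 85.2 and 86.6% of the members. With each list reduced to its 2824 highest scores, 26.5% of the DMSO Pre members recurred in DMSO MCE, while those of DMSO MCE recurred by 33.3% in DMSO Pre, by 37.0% in DMSO Diff and by 39.9% in rhein MCE. The DMSO MCE list then shared 31.9% of the DMSO Diff members and 37.6% of those of rhein MCE, and 6 other directions stayed within their intervals. The lists hold no reads per peak, and a peak missing from a list may be below its depth. The cause of these differences was not tested.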

Other observations

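Several genes next in number of members had all or nearly all of them in 1 long exon, in each of the 4 lists. Tcf20, a transcriptional coregulator, had 5 members for DMSO Pre, 2 for DMSO MCE, 4 for DMSO Diff and 3 for rhein MCE, all 14 in its 5772-base exon 2 of 5, with GGAC in 3 of them. Tnrc6b, a partner of Argonaute proteins in microRNA silencing, had 4, 3, 4 and 3, all 14 in its 2340-base exon 8 of 25, with GGAC in 11. Bcl9l, a coactivator of beta-catenin, had 4, 4, 4 and 3, of which 13 of 15 were in its 2287-base exon 6 of 8 and 13 held GGAC. The collagen genes Col18a1, Col6a2 and Col6a3 had their members in several exons. Col18a1 had 2, 3, 5 and 4 members in 10 different exons, 12 of the 14 crossing an exon end and 13 with GGAC, and Col6a2 had 3, 0, 6 and 4 in 8 different exons, 9 of the 13 crossing an exon end. Col6a3 differed from both, with 9, 0, 3 and 1 in 9 different exons and only 3 of the 13 crossing an exon end. These genes were ranked by their number of members but lie beyond the 10 named by rule, and were chosen after their values were seen.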
